A study of Mus musculus with 28 samples.

Results

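A list of 39 genes of sterol and fatty acid synthesis was followed across mouse mammary cells and tumours that carried or lacked an activating PIK3CA mutation. It holds the enzymes from mevalonate to cholesterol, the regulators of the transcription factor SREBP, the enzymes that make, desaturate and elongate fatty acids, and genes that activate and use fatty acids or carry sterols. A gene was measured by the probe set annotated to its symbol alone with the highest mean over all arrays, which gave 36 of 39 members among 17097 genes. Pmvk, Srebf1 and Scd2 were not analysed here. The data are 28 Affymetrix arrays of cells sorted by flow cytometry from female mice, in 11 groups. Every mouse carried the reporter RosaYFP and a tamoxifen-inducible Cre recombinase driven by a keratin promoter, K5CREERT2 for basal cells or K8CREERT2 for luminal cells, and received 3 injections of 5 mg tamoxifen, 3 days apart, from the age of 4 to 5 weeks. Tumour cells came from K5CREERT2/PIK3CA-H1047R/RosaYFP mice (K5-PIK tumours, 3 arrays), from K8CREERT2/PIK3CA-H1047R/p53flox/flox/RosaYFP mice (p53flox/flox tumours, 2 arrays) and from K8CREERT2/PIK3CA-H1047R/RosaYFP mice (K8-PIK tumours, 7 arrays), with no time stated. YFP-positive cells from mice with the oncogene and no tumour label were K8-PIK basal and luminal cells at 8 weeks after tamoxifen, and K5-PIK luminal and basal cells at 10 months. Normal cells were K5CREERT2/RosaYFP basal cells and K8CREERT2/RosaYFP luminal cells, called YFP, at 10 months and at 8 weeks. Each of these 8 sorted groups had 2 arrays.

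Cholesterol is built from acetyl-CoA through mevalonate, farnesyl diphosphate, squalene and lanosterol, and fatty acids are built from acetyl-CoA through malonyl-CoA by fatty acid synthase. Both pathways are driven by the SREBP transcription factors, which Scap escorts from the endoplasmic reticulum to the Golgi for cleavage when sterols are low, and which Insig proteins hold back when sterols are high. Insig1 is itself an SREBP target, and signalling through PI3-kinase, AKT and mTORC1 is a known activator of SREBP. In the mammary gland, luminal alveolar cells are known for the large lipid synthesis of lactation.

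Promoters are shown first because SREBP is known to act together with NF-Y, a factor that binds CCAAT boxes. RefSeq promoter sequences (GRCm38.p6) matched 30 of the 36 measured members, and the 250 bases before each start site were searched on both strands. CCAAT was present in 23 of 30 member genes, 76.7% of them, against 37.5% of 27025 genes with a promoter sequence and 39.5% of 17492 coding genes. The E-box CACGTG was present in 20.0% of the members and 6.86% of all genes, and the sterol regulatory element core TCACNCCAC in 3.33%, the single match being Hmgcs1, and 1.23% of all genes. Such matches describe letters in this window and show no binding. The promoters of 5 genes are printed for the regulator Insig1 and for enzymes that carry the differences described below: Nsdhl and Ebp of the late sterol pathway, Fasn of fatty acid synthesis and Acsl3 of fatty acid activation. Each runs 5′ to 3′ on the gene's strand up to the base before the start site, with CCAAT or its complement ATTGG in capitals. They lie at chr5:28071162-28071411 (plus strand) for Insig1, chrX:72918271-72918520 (plus) for Nsdhl, chrX:8193513-8193762 (minus) for Ebp, chr11:120824548-120824797 (minus) for Fasn and chr1:78657575-78657824 (plus) for Acsl3. In Fasn a CCAAT and an ATTGG overlap.
Insig1: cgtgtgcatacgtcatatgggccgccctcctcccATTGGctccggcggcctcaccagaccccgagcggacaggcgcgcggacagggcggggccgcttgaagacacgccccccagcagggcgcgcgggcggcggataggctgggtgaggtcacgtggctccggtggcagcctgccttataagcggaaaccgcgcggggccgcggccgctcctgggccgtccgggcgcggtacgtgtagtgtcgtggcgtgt
Nsdhl: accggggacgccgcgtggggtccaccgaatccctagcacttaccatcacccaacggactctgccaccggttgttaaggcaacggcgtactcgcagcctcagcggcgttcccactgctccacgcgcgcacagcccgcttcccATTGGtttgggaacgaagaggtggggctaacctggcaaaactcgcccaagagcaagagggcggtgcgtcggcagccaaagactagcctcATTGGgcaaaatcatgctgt
Ebp: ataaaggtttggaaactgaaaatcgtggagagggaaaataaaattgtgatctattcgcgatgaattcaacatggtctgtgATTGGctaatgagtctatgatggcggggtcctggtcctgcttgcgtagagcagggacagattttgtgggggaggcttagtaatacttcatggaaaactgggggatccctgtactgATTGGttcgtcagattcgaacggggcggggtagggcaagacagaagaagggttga
Fasn: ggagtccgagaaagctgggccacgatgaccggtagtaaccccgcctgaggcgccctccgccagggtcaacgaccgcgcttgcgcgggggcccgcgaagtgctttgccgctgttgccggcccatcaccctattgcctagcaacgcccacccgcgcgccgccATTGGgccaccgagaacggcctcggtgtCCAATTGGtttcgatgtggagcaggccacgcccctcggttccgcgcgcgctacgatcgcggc
Acsl3: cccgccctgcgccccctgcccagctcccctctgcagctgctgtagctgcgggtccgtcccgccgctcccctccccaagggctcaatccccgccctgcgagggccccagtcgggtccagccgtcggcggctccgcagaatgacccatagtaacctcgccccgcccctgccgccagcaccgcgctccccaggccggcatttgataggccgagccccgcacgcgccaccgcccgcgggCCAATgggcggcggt
The capitals stand once in Insig1 and in Acsl3, in 2 places in Nsdhl and Ebp, and in 3 places in Fasn, of which 2 overlap. Insig1 and Fasn are 2 members that were higher in K8-PIK tumours than in luminal cells. Nsdhl and Ebp were lower in basal than in luminal YFP cells, and Acsl3 was higher there. All printed promoters hold a box, so they cannot show whether boxes go with a direction. Scap, Acly, Acaca, Elovl6, Fads2, Acsl4 and Lpin1 had a promoter sequence but no CCAAT in the bases searched. Among them Elovl6 was lower in basal than in luminal YFP cells, and Acsl4 was higher there at the later time. Whether boxes go with a difference was not tested.

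Values are the deposited log2 expression values. Differences are log2 differences ± SE, tested with limma's moderated test and adjusted by Benjamini-Hochberg over all genes of the fit, and a gene was called at an adjusted p under 0.05. Array medians lay between 4.40 and 4.50, and replicates of sorted cells correlated across genes at 0.973 to 0.995. Tumours of 1 group correlated at 0.919 to 0.982. Replicate 3 of the K8-PIK tumours stood apart, with a mean correlation of 0.933 with the other 6, which had means of 0.953 to 0.964. Its level of the basal keratin Krt5 was 6.86, the lowest of the 7, but the mean of its basal markers, 7.14, was not (6.51 on replicate 5). The mean of its luminal markers, 7.74, and its level of the luminal keratin Krt8, 10.46, were also the lowest of the 7. Results on this group are given without replicate 3 where that changed a count of members by over 1.5 times. Whether replicates are separate animals is not stated, and every p-value rests on the spread among these arrays, part of which may be technical. In the YFP cells all 10 measured basal markers were higher in the basal gate at both times, and 10 (8 weeks) and 12 (10 months) of 12 luminal markers were lower there, as the gates are labelled. Of fat cell genes Adipoq lay below the 40th percentile of every array and Fabp4, which capillaries also express, above it on 27 of 28, and the blood cell gene Ptprc lay above it on 3. At 10 months 2 of 5 tested fat cell genes were higher and 1 lower in YFP basal than in YFP luminal cells, and 2 of 5 immune genes were higher (immune list means 4.68 to 5.19, against 4.07 to 4.12). Their part in the member differences was not tested. RNA of sorted populations was measured in bulk, so fewer cells of a type and less RNA per cell cannot be told apart.

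Across the 11 groups the widest range of group means among the members belonged to Dhcr7 (3.29 log2 units), which catalyses the last step to cholesterol, Fdps (3.07), which makes farnesyl diphosphate, and Acsl4 (3.01), which activates arachidonic acid. The narrowest belonged to Hmgcs1 (0.29), Acacb (0.48) and Hsd17b7 (0.64). Acacb exceeded the 40th percentile on 18 of 28 arrays and Hsd17b7 on all 28, so that of these 3 only Hsd17b7 was measured above it throughout. Hmgcs1, the enzyme that supplies mevalonate synthesis, did not rise above the 40th percentile on any of 28 arrays, and Lss, the enzyme that closes the lanosterol rings, did so on 2. Hmgcs1 was therefore untested throughout and Lss untested in sorted cells, which left 34 members tested among sorted cells and 35 in comparisons with tumours. The ranges of those 2 probe sets lie at background level. Stard4 was tested but exceeded the 40th percentile on 19 of 28 arrays, so its differences lie near background level.

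**Figure D1:**
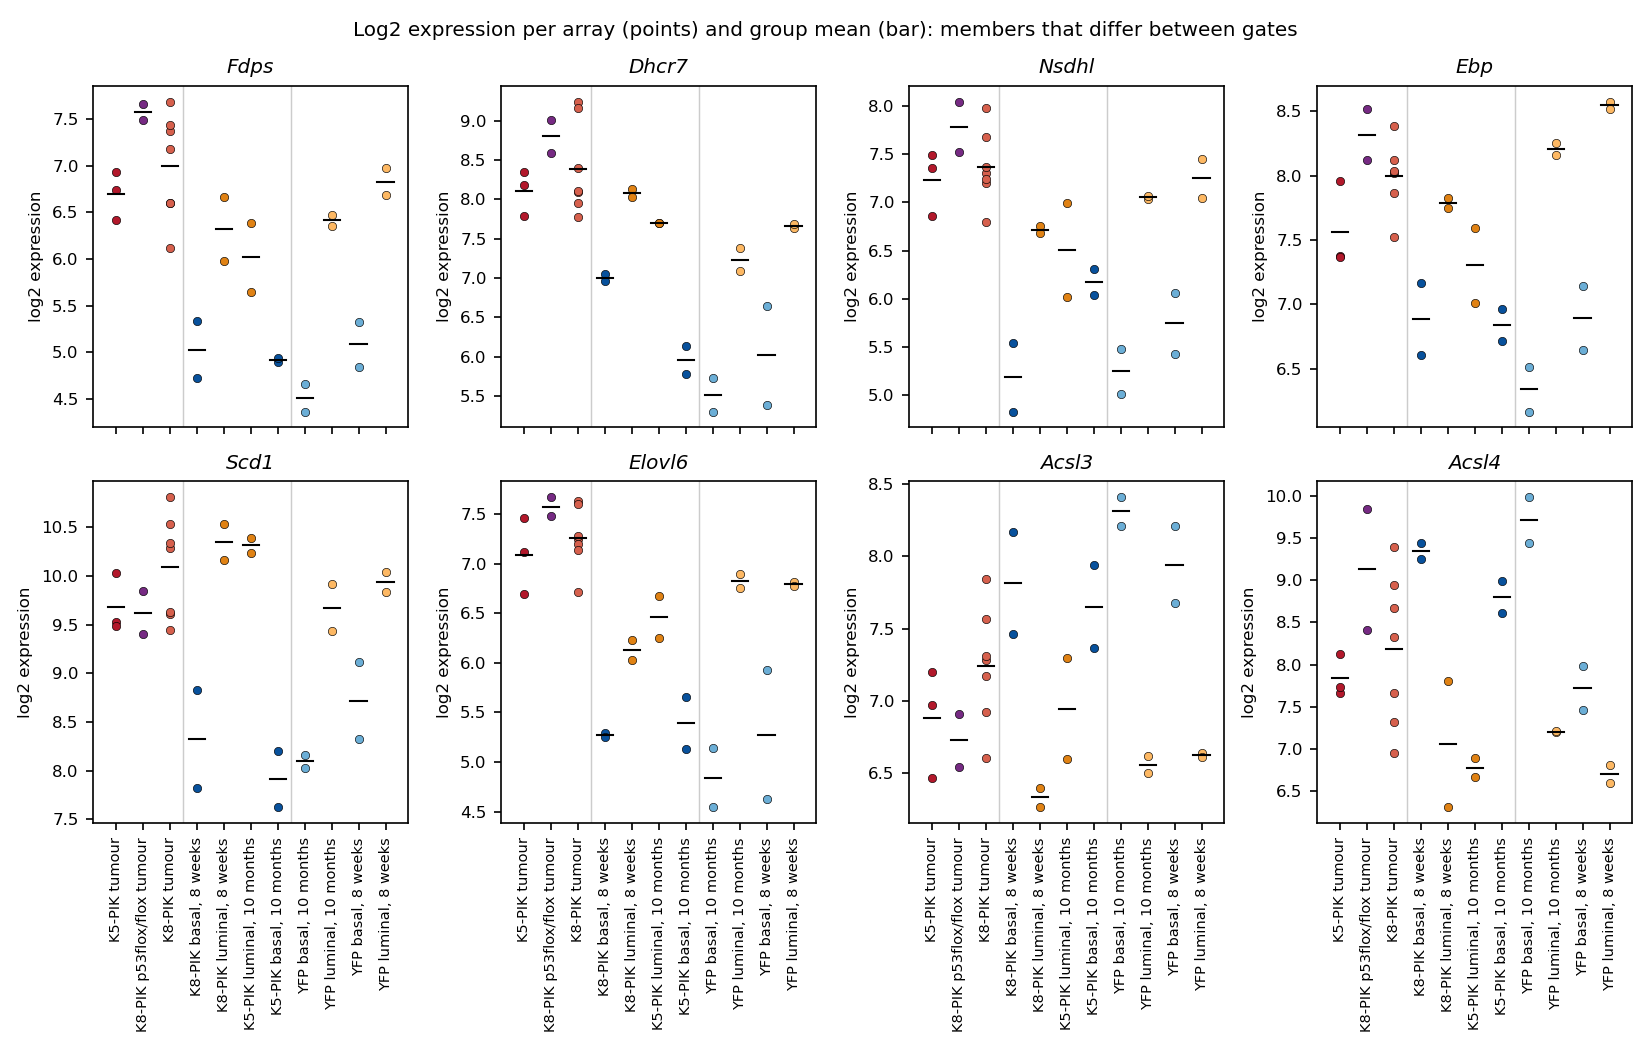
Log2 expression (vertical axis) of 8 members on every array (points) with the group mean (bar), for tumours, sorted oncogene cells and YFP cells from left to right. Fdps, Dhcr7, Nsdhl, Ebp, Scd1 and Elovl6 lie lower in basal than in luminal YFP cells, and Acsl3 and Acsl4 lie higher.

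Normal basal cells had less mRNA than normal luminal cells for several enzymes between farnesyl diphosphate and cholesterol, for the desaturase Scd1 and for the elongase Elovl6, and more for the fatty acid activating enzyme Acsl3. All YFP basal cells came from K5CREERT2 mice and all YFP luminal cells from K8CREERT2 mice. Gate and Cre driver therefore cannot be told apart between the YFP gates. At 8 weeks 3 of 34 members were higher in YFP basal cells and 13 lower, where 10.4% of all 13150 genes were called higher and 19.9% lower (30.3% in all). At 10 months 5 members were higher and 14 lower, against 17.6% and 25.8% of all genes (43.4% in all). With quantile normalization added, the 8-week split was 5 higher and 11 lower, a count given without the share of all genes in that setting. The median member difference was -0.43 at 8 weeks and -0.51 at 10 months, beside medians of -0.09 and -0.12 over all genes tested. Of the 16 members called at 8 weeks and the 19 at 10 months, 12 were called at both times with the same direction, which is 75.0% of the first list and 63.2% of the second. Over all genes called, the same shares were 80.4% and 56.1%. With 2 arrays a group, arrays that do not overlap are common. They were found for 25 of 34 members and 65.5% of all genes at 8 weeks, and for 31 members and 78.3% of all genes at 10 months.

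In the mevalonate arm the difference lay at Fdps and Mvd. At 8 weeks Fdps had 4.84 and 5.33 in YFP basal cells, against 6.97 and 6.68 in YFP luminal cells (-1.74 ± 0.30, adjusted p = 0.00114). At 10 months it had 4.36 and 4.66 in basal cells, against 6.36 and 6.47 in luminal cells (-1.90 ± 0.30, adjusted p = 0.000347). No basal array reached the lowest luminal array at either time. Mvd, which makes the isoprene unit isopentenyl diphosphate, had 5.38 and 5.29 in basal cells, against 6.77 and 5.95 in luminal cells at 8 weeks (-1.03 ± 0.28, adjusted p = 0.0148), and differed by -0.80 ± 0.28, adjusted p = 0.0328 at 10 months. Mvk, mevalonate kinase, was called lower at 10 months alone (-0.40 ± 0.15, adjusted p = 0.0494), and Idi1, which isomerises the isoprene unit, was not called at either time (-0.67 ± 0.29, adjusted p = 0.0753 at 10 months). Whether Mvk differed more at one time than at the other was tested with the interaction of gate and time, which called no member (limma, 0.0532% of all genes), while 1 member and 12.6% of all genes had an unadjusted p under 0.05.

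Between squalene and cholesterol, 5 of the 10 tested enzymes were lower in basal cells at 8 weeks and 6 at 10 months, while 1, Cyp51, was higher at both. Ebp, the sterol isomerase, had 6.65 and 7.14 in basal cells, against 8.58 and 8.52 in luminal cells at 8 weeks (-1.65 ± 0.25, adjusted p = 0.000478), and 6.17 and 6.52 against 8.16 and 8.25 at 10 months (-1.87 ± 0.25, adjusted p = 0.000101). Dhcr7 had 5.39 and 6.64 in basal cells, against 7.64 and 7.69 in luminal cells at 8 weeks (-1.65 ± 0.31, adjusted p = 0.00202), and 5.30 and 5.72 against 7.38 and 7.09 at 10 months (-1.72 ± 0.31, adjusted p = 0.000873). Nsdhl, which removes methyl groups from the sterol ring, had 5.43 and 6.06 in basal cells, against 7.45 and 7.04 in luminal cells at 8 weeks (-1.50 ± 0.33, adjusted p = 0.00502), and 5.02 and 5.48 against 7.04 and 7.06 at 10 months (-1.80 ± 0.33, adjusted p = 0.001). For all 3 genes the basal arrays lay below the luminal arrays of the same time without overlap. The sterol reductase Tm7sf2 had 5.84 and 5.37 in basal cells, against 7.11 and 6.37 in luminal cells at 8 weeks (-1.13 ± 0.26, adjusted p = 0.00715), and differed by -1.22 ± 0.26, adjusted p = 0.00289 at 10 months. Squalene synthase, Fdft1, passed the test at 8 weeks (-0.88 ± 0.21, adjusted p = 0.00736) but not at 10 months (-0.49 ± 0.21, adjusted p = 0.0757), and Msmo1 (-0.91 ± 0.24, adjusted p = 0.00954) and Sc5d (-0.85 ± 0.29, adjusted p = 0.0326), which oxidise and desaturate sterol intermediates, passed it at 10 months. The exception was Cyp51, the demethylase of lanosterol, with 8.08 and 8.02 in basal cells, against 7.59 and 6.99 in luminal cells at 8 weeks (0.76 ± 0.26, adjusted p = 0.045), and 0.72 ± 0.26, adjusted p = 0.0433 at 10 months. Neither Sqle, squalene epoxidase, nor Hsd17b7, a ketosterol reductase, was called.

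Among the regulators the calls differed by time, but the interaction of gate and time called no member. Srebf2, the SREBP gene most tied to sterol synthesis, had 7.39 and 7.55 in basal cells, against 8.22 and 8.50 in luminal cells at 10 months (-0.89 ± 0.19, adjusted p = 0.00295), and -0.39 ± 0.19, adjusted p = 0.146 at 8 weeks, where it was not called. Insig2 (-0.84 ± 0.25, adjusted p = 0.0236) and the escort protein Scap (-0.63 ± 0.22, adjusted p = 0.0479) were lower in basal cells at 8 weeks. Neither was called at 10 months, when Insig2 had 6.89 and 7.18 in basal cells, against 7.65 and 7.60 in luminal cells. Scap then had 7.24 and 6.60 in basal cells, against 7.26 and 7.20 in luminal cells. Insig1 had 7.57 and 7.55 in basal cells, against 7.03 and 6.11 in luminal cells at 8 weeks, a difference of 0.99 ± 0.36, adjusted p = 0.0527 that missed the threshold although the arrays did not overlap. It was not called at 10 months either, with 7.44 and 7.22 in basal cells, against 6.83 and 6.91 in luminal cells.

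Fatty acid synthase went the opposite way from the enzymes that modify its product. Fasn had 8.48 and 7.78 in basal cells, against 7.47 and 7.54 in luminal cells at 8 weeks (0.63 ± 0.21, adjusted p = 0.042), and 8.13 and 8.16 against 7.31 and 7.38 at 10 months (0.80 ± 0.21, adjusted p = 0.00931). Scd1, which makes oleate from stearate, had 8.32 and 9.11 in basal cells, against 9.84 and 10.04 in luminal cells at 8 weeks (-1.22 ± 0.34, adjusted p = 0.0164), and 8.03 and 8.17 against 9.92 and 9.43 at 10 months (-1.58 ± 0.34, adjusted p = 0.00259). Elovl6, which elongates palmitate, had 4.62 and 5.92 in basal cells, against 6.82 and 6.77 in luminal cells at 8 weeks (-1.52 ± 0.34, adjusted p = 0.00589), and 4.54 and 5.14 against 6.89 and 6.75 at 10 months (-1.98 ± 0.34, adjusted p = 0.0007). So Fasn was higher on every basal array, while Scd1 and Elovl6 were lower on every basal array. Me1, a source of NADPH for lipid synthesis, was called lower at 8 weeks (-0.73 ± 0.21, adjusted p = 0.0191). Acly, Acss2, Acaca and Acacb, which supply acetyl-CoA and malonyl-CoA, and the polyunsaturated fatty acid enzymes Elovl5, Fads1 and Fads2 were not called at either time.

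Genes that use activated fatty acids split in direction. Acsl3, an acyl-CoA synthetase of lipid droplets and the endoplasmic reticulum, had 7.67 and 8.21 in basal cells, against 6.64 and 6.61 in luminal cells at 8 weeks (1.32 ± 0.29, adjusted p = 0.00497), and 8.21 and 8.41 against 6.50 and 6.62 at 10 months (1.75 ± 0.29, adjusted p = 0.000502). Acsl4 had 7.99 and 7.46 in basal cells, against 6.81 and 6.60 in luminal cells at 8 weeks (1.02 ± 0.37, adjusted p = 0.0553), and 9.98 and 9.44 against 7.20 and 7.21 at 10 months (2.51 ± 0.37, adjusted p = 0.000243). Both synthetases lay higher on every basal array, with Acsl4 called at 10 months alone. Gpam, which starts triglyceride synthesis, was lower in basal cells (-0.96 ± 0.31, adjusted p = 0.0325 at 8 weeks and -1.13 ± 0.31, adjusted p = 0.0102 at 10 months). Lpin1, a phosphatidate phosphatase, was lower at 10 months with 4.84 and 4.64 in basal cells, against 6.48 and 6.27 in luminal cells (-1.64 ± 0.41, adjusted p = 0.00651), and the sterol carrier Stard4 was higher then (0.40 ± 0.15, adjusted p = 0.0485).

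**Figure D2:**
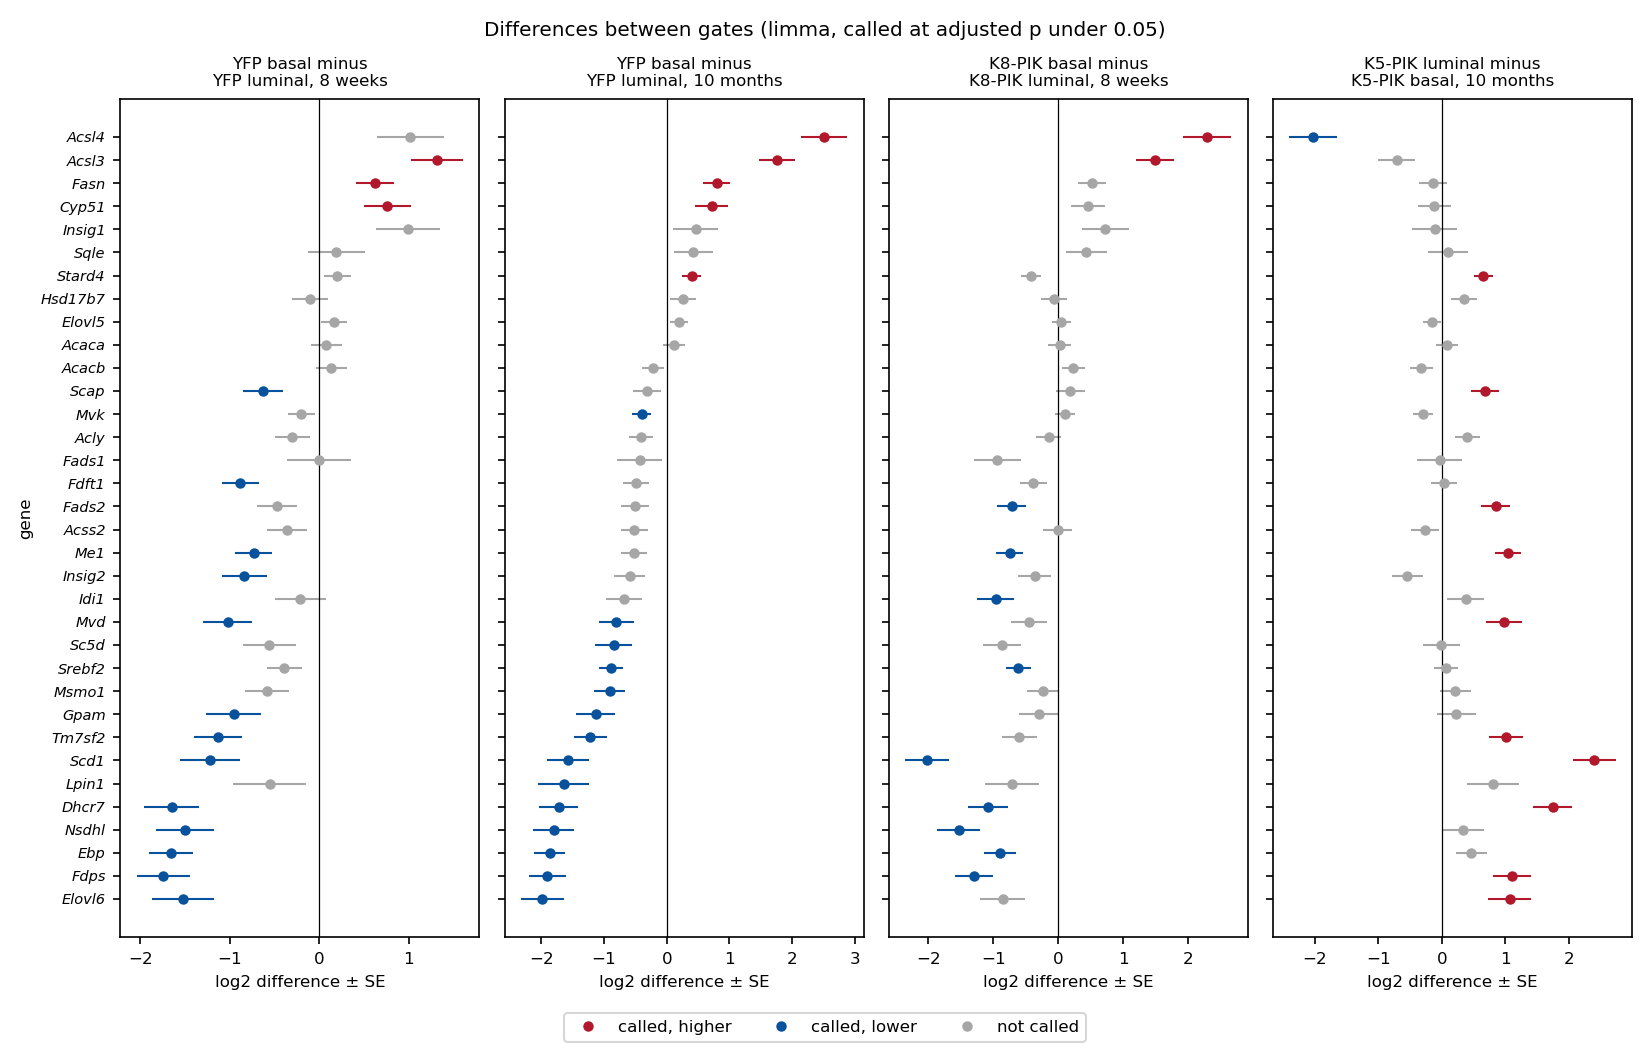
Log2 difference ± SE (horizontal axis) of the 34 tested members for YFP basal minus YFP luminal cells at 8 weeks and 10 months, K8-PIK basal minus K8-PIK luminal cells, and K5-PIK luminal minus K5-PIK basal cells, with called members in red (higher) or blue (lower). In the fourth panel the sign is turned because the luminal group is on top of the difference, so Dhcr7, Fdps and Scd1, which are blue in the first 3 panels, are red there.

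These counts rested in part on single arrays. At 8 weeks 5 members were called without YFP basal replicate 1, where 18% of all genes were, 10 without YFP basal replicate 2 (25.2% of all genes) and 8 without YFP luminal replicate 1 (15.9%). The 5 are a share of the members no higher than that of all genes. At 10 months 12 were called without YFP basal replicate 1 (26.9% of all genes). Acsl3, Dhcr7, Ebp and Fdps at 8 weeks, and these 4 with Acsl4, Elovl6, Lpin1, Nsdhl, Scd1, Srebf2 and Tm7sf2 at 10 months, were called in all 10 alternative settings. Markers of endothelial cells moved with the gate: 7 of 8 were higher in YFP basal cells at 8 weeks and 8 of 8 at 10 months, with list means of 6.54 to 7.60 and 6.40 to 7.37 in basal cells, against 4.79 to 5.85 and 4.90 to 4.94 in luminal cells. At 8 weeks 4 of 6 proliferation genes were lower in basal cells (list means 5.19 to 5.50, against 6.11 to 6.67), and at 10 months 5 of 8 milk genes were (4.97 to 5.79, against 7.48 to 7.64). The part of endothelial RNA, of proliferation and of milk gene RNA in the YFP differences was not tested. Between the gates of K8-PIK cells and between those of K5-PIK cells limma called 0 of 8 endothelial markers, also at an unadjusted p under 0.05. The endothelial list means were 5.94 to 6.05 in K8-PIK basal cells and 4.96 to 5.76 in K8-PIK luminal cells, without overlap, and 4.45 to 5.16 in K5-PIK luminal cells and 4.44 to 5.67 in K5-PIK basal cells.

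Gate differences in sterol and fatty acid genes were also measured in cells that carried PIK3CA-H1047R. K8-PIK basal cells at 8 weeks, from mice whose Cre was driven in luminal cells, had 2 members higher and 9 lower than K8-PIK luminal cells, where 19.5% of all genes were called (8.90% higher and 10.6% lower). K5-PIK luminal cells at 10 months, from mice whose Cre was driven in basal cells, had 10 members higher and 1 lower than K5-PIK basal cells, where 23.6% of all genes were called (10.4% higher and 13.2% lower). The 4 gate comparisons share no array. Fdps, Dhcr7 and Scd1 were called lower in the basal gate in all 4, as were 4.11% of all genes, and no member was called higher in the basal gate in all 4, against 4.81% of all genes. Mvd, Tm7sf2, Nsdhl, Ebp, Me1 and Elovl6 were called lower in the basal gate in 3 of the 4, as were 6.13% of all genes. Acsl3 and Acsl4 were called higher in 3, as were 3.41% of all genes. In none of the 4 were 9 of 34 members called, a count given without the share of all genes.

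Scd1 had the largest fall among the sterol and fatty acid enzymes of K8-PIK basal cells, with 7.82 and 8.83, against 10.53 and 10.16 in K8-PIK luminal cells (-2.02 ± 0.34, adjusted p = 0.00129). Nsdhl had 4.83 and 5.54 in the basal and 6.75 and 6.68 in the luminal gate (-1.53 ± 0.33, adjusted p = 0.00605), and Fdps 4.72 and 5.34 in the basal and 5.98 and 6.67 in the luminal gate (-1.30 ± 0.30, adjusted p = 0.00867). In each case both basal arrays lay below both luminal arrays. In all, 26 of 34 members and 63.1% of all genes had arrays that did not overlap. Dhcr7 had 7.05 and 6.96 in K8-PIK basal cells, against 8.13 and 8.03 in K8-PIK luminal cells (-1.07 ± 0.31, adjusted p = 0.0278), and Ebp 6.61 and 7.17 against 7.75 and 7.83 (-0.90 ± 0.25, adjusted p = 0.0221). Idi1 (-0.96 ± 0.29, adjusted p = 0.033), Me1 (-0.74 ± 0.21, adjusted p = 0.0245), Fads2, which desaturates polyunsaturated fatty acids (-0.72 ± 0.22, adjusted p = 0.0406), and Srebf2 (-0.61 ± 0.19, adjusted p = 0.0414) were lower as well, and another probe set of Fads2 had the opposite sign. Acsl4 had 9.26 and 9.44 in K8-PIK basal cells, against 7.80 and 6.31 in K8-PIK luminal cells (2.29 ± 0.37, adjusted p = 0.0011), and Acsl3 had 8.17 and 7.46 against 6.40 and 6.26 (1.49 ± 0.29, adjusted p = 0.00329). The luminal replicates of Acsl4 lay far apart, and both were below the basal arrays. Members called numbered 2 without K8-PIK basal replicate 1 (8.73% of all genes), 7 without basal replicate 2 (14.6%), 6 without luminal replicate 1 (14.8%) and 4 without luminal replicate 2 (8.87%). Acsl4 and Scd1 were called in all 10 settings. Of 8 milk genes 6 were lower in K8-PIK basal cells (list means 5.50 to 6.74, against 8.05 to 8.46), whose part in these differences was not tested. Krt5 had 11.84 and 11.81 in K8-PIK basal and 11.16 and 9.99 in K8-PIK luminal cells. The list means of basal markers were 9.60 to 9.67, against 6.49 to 7.28.

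In K5-PIK cells at 10 months Scd1 had 10.24 and 10.39 in the luminal gate, against 8.20 and 7.63 in the basal gate (2.40 ± 0.34, adjusted p = 0.000224). Dhcr7 had 7.70 and 7.70 in K5-PIK luminal cells, against 6.13 and 5.78 in K5-PIK basal cells (1.74 ± 0.31, adjusted p = 0.00124), and Me1 9.25 and 9.06 against 8.43 and 7.80 (1.04 ± 0.21, adjusted p = 0.00283). The luminal arrays of all 3 lay above the basal arrays. In either direction 19 of 34 members and 53.6% of all genes did not overlap. The gap of Scd1 was the largest of any member. Fdps had 5.65 and 6.38 in luminal cells, against 4.90 and 4.94 in basal cells (1.10 ± 0.30, adjusted p = 0.0172), and Elovl6 6.25 and 6.67 against 5.65 and 5.13 (1.07 ± 0.34, adjusted p = 0.0401). Tm7sf2 (1.01 ± 0.26, adjusted p = 0.0148), Mvd (0.98 ± 0.28, adjusted p = 0.0216), Fads2 (0.84 ± 0.22, adjusted p = 0.0157), Scap (0.69 ± 0.22, adjusted p = 0.0403) and Stard4 (0.65 ± 0.15, adjusted p = 0.00705) were higher too. Acsl4 was the single member lower in K5-PIK luminal cells, with 6.66 and 6.89, against 8.99 and 8.61 in K5-PIK basal cells (-2.02 ± 0.37, adjusted p = 0.00163). Without K5-PIK basal replicate 2 the count was 6 (17.7% of all genes), and Acsl4, Dhcr7 and Scd1 were called in all 10 settings. Of 8 milk genes 5 were higher in K5-PIK luminal cells (list means 8.08 to 8.26, against 5.76 to 6.47 in K5-PIK basal cells), and their part was not tested.

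Ebp and Stard4 had a different gate gap in K5-PIK cells than in YFP cells at 10 months, tested as the interaction of gate and genotype, in which Cre drivers also differ for the luminal gate. For Ebp the basal minus luminal gap was -0.46 in K5-PIK cells and -1.87 in YFP cells (interaction 1.40 ± 0.35, adjusted p = 0.0351), with 6.96 and 6.72 in K5-PIK basal and 7.01 and 7.60 in K5-PIK luminal cells. For Stard4 the gap was -0.65 in K5-PIK cells and 0.40 in YFP cells (interaction -1.05 ± 0.21, adjusted p = 0.0182). The gate with the higher level was thus the luminal one in K5-PIK and the basal one in YFP cells. Stard4 lay near background level in these groups, with 3.76 and 3.87 in YFP luminal cells, below the 40th percentile (3.89 to 3.99). Its other probe sets gave smaller interactions of the same sign, -0.18 and -0.56. Of all genes 7.15% had a called interaction (5.19% positive and 1.96% negative). With all 28 arrays in the fit neither was called (1.24% of all genes). The count of members was 0 without any of YFP luminal replicates 1 and 2, YFP basal replicate 1, K5-PIK luminal replicate 1 or K5-PIK basal replicate 2, 1 without K5-PIK basal replicate 1 (6.76% of all genes) and 6 without K5-PIK luminal replicate 2 (18%). At 8 weeks limma called no member for this interaction in K8-PIK cells (0.00760% of all genes called), with 4 members and 9.70% of all genes at an unadjusted p under 0.05.

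The oncogene was set against normal cells of the same gate and Cre driver in luminal cells at 8 weeks and in basal cells at 10 months. In K8-PIK luminal cells limma called no member against YFP luminal cells, where 0.350% of all genes were called, and 5 members had an unadjusted p under 0.05, 1 higher and 4 lower, as did 4.54% (higher) and 6.42% (lower) of all genes. Those 5 were Lpin1 (-1.54 ± 0.41, adjusted p = 0.155), Ebp (-0.76 ± 0.25, adjusted p = 0.251), Fdft1 (-0.67 ± 0.21, adjusted p = 0.236), Mvk (-0.63 ± 0.15, adjusted p = 0.126) and Me1 (0.56 ± 0.21, adjusted p = 0.323), each without overlap between the arrays, as in 45.2% of all genes. Insig1 had 7.36 and 6.11 in K8-PIK luminal cells, against 7.03 and 6.11 in YFP luminal cells (0.16 ± 0.36, adjusted p = 0.918), Fasn 7.57 and 7.41 against 7.47 and 7.54 (-0.01 ± 0.21, adjusted p = 0.994) and Scd1 10.53 and 10.16 against 9.84 and 10.04 (0.41 ± 0.34, adjusted p = 0.721). None of these 3 differences passed the test. The basal keratin Krt5 had 11.16 and 9.99 in K8-PIK luminal cells, against 7.45 and 8.09 in YFP luminal cells. The list means of basal markers overlapped (6.49 to 7.28, against 5.93 to 6.75), and their part was not tested.

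K5-PIK basal cells at 10 months had 2 members higher and 1 lower than YFP basal cells, where 16.3% of all genes were called (8.28% higher, 8.02% lower). The share of members called, 8.82%, was below that of all genes. With quantile normalization added, 6 were higher and 1 lower, a count given without the share of all genes in that setting. The desaturases Fads1 and Fads2, which act one after the other on polyunsaturated fatty acids, were the higher ones. Fads1 had 8.87 and 9.21 in K5-PIK basal cells, against 7.58 and 8.10 in YFP basal cells (1.20 ± 0.36, adjusted p = 0.0385), and Fads2 8.75 and 9.16 against 8.18 and 8.31 (0.71 ± 0.22, adjusted p = 0.0493). Sqle, the oxygen-dependent step after squalene, had 7.32 and 6.67 in K5-PIK basal cells, against 8.01 and 8.01 in YFP basal cells (-1.01 ± 0.32, adjusted p = 0.0472). The arrays of the groups did not overlap for any of the 3. They did not overlap for 21 of 34 members and 62.1% of all genes. No member was called without YFP basal replicate 1, without YFP basal replicate 2 or without K5-PIK basal replicate 2 (2.61%, 8.57% and 2.8% of all genes), 1 was with all 28 arrays in the fit (7.65%), and another probe set of Fads1 had the opposite sign. Endothelial markers were lower in K5-PIK basal cells for 6 of 8 genes (list means 4.44 to 5.67, against 6.40 to 7.37), and milk genes were higher for 3 of 8 (5.76 to 6.47, against 4.97 to 5.79). The part of either in these differences was not tested.

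Comparisons across Cre drivers gave few calls. K8-PIK basal against YFP basal cells at 8 weeks gave no member by limma, where 0.418% of all genes were called, with 7 members and 13.9% of all genes at an unadjusted p under 0.05. Without YFP basal replicate 2 the count was 1 (0.0534% of all genes). Dhcr7 had 7.05 and 6.96 in K8-PIK basal cells, against 5.39 and 6.64 in YFP basal cells (0.99 ± 0.31, adjusted p = 0.187), and Acsl4 9.26 and 9.44 against 7.99 and 7.46 (1.63 ± 0.37, adjusted p = 0.0816), both higher on every K8-PIK array without passing the test. In that comparison 14 of 34 members and 45.2% of all genes did not overlap. K5-PIK luminal against YFP luminal cells at 10 months gave 2 members higher and 2 lower, where 6.40% of all genes were called (2.08% higher and 4.32% lower). The counts were 2 and 1 with quantile normalization added, given without the share of all genes in that setting. Fads2 had 9.74 and 9.86 in K5-PIK luminal cells, against 9.01 and 8.51 in YFP luminal cells (1.04 ± 0.22, adjusted p = 0.0192), and Stard4 4.66 and 4.42 against 3.76 and 3.87 (0.73 ± 0.15, adjusted p = 0.0162). Insig2 had 6.17 and 6.92 in K5-PIK luminal cells, against 7.65 and 7.60 in YFP luminal cells (-1.08 ± 0.25, adjusted p = 0.0247), and Ebp 7.01 and 7.60 against 8.16 and 8.25 (-0.90 ± 0.25, adjusted p = 0.0479). None of these 4 overlapped, nor did 22 of 34 members and 53.3% of all genes in all. The count was 0 without YFP luminal replicate 2 (0.907% of all genes), without K5-PIK luminal replicate 1 (3.14%) or with all 28 arrays in the fit (0.732%), and 1 without YFP luminal replicate 1 (1.11%). Basal markers were higher in K5-PIK luminal cells for 5 of 10 genes (list means 6.99 to 7.00, against 5.72 to 5.98), and their part was not tested. Genotype and Cre driver cannot be told apart in either comparison.

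Acsl4 was the 1 member called between times. YFP basal cells had 9.98 and 9.44 for Acsl4 at 10 months, against 7.99 and 7.46 at 8 weeks (1.99 ± 0.37, adjusted p = 0.0318), where 1.27% of all genes were called (0.875% higher). With quantile normalization added, 1 member was higher and 1 lower, a count given without the share of all genes in that setting. The arrays did not overlap, as for 21 of 34 members and 53.1% of all genes. The call was lost with all 28 arrays in the fit, without YFP basal replicate 2 of 8 weeks or without either 10-month basal array, while 2 members were called without YFP basal replicate 1 of 8 weeks (0.831% of all genes). In the same cells 2 of 8 milk genes were lower at 10 months (list means 4.97 to 5.79, against 7.10 to 7.27). Luminal list means were 6.96 to 7.68 at 10 months, against 8.11 to 8.38 at 8 weeks, with no gene called. The part of either was not tested. In luminal cells limma called no member (0.0608% of all genes called, with 1 member and 9.33% of all genes at an unadjusted p under 0.05), and Acsl4 had 7.20 and 7.21 at 10 months, against 6.81 and 6.60 at 8 weeks. The difference between the basal and luminal changes with time, the interaction of gate and time, was 1.49 ± 0.53, adjusted p = 0.279 and was not called. Age and time since tamoxifen cannot be told apart here.

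**Figure D3:**
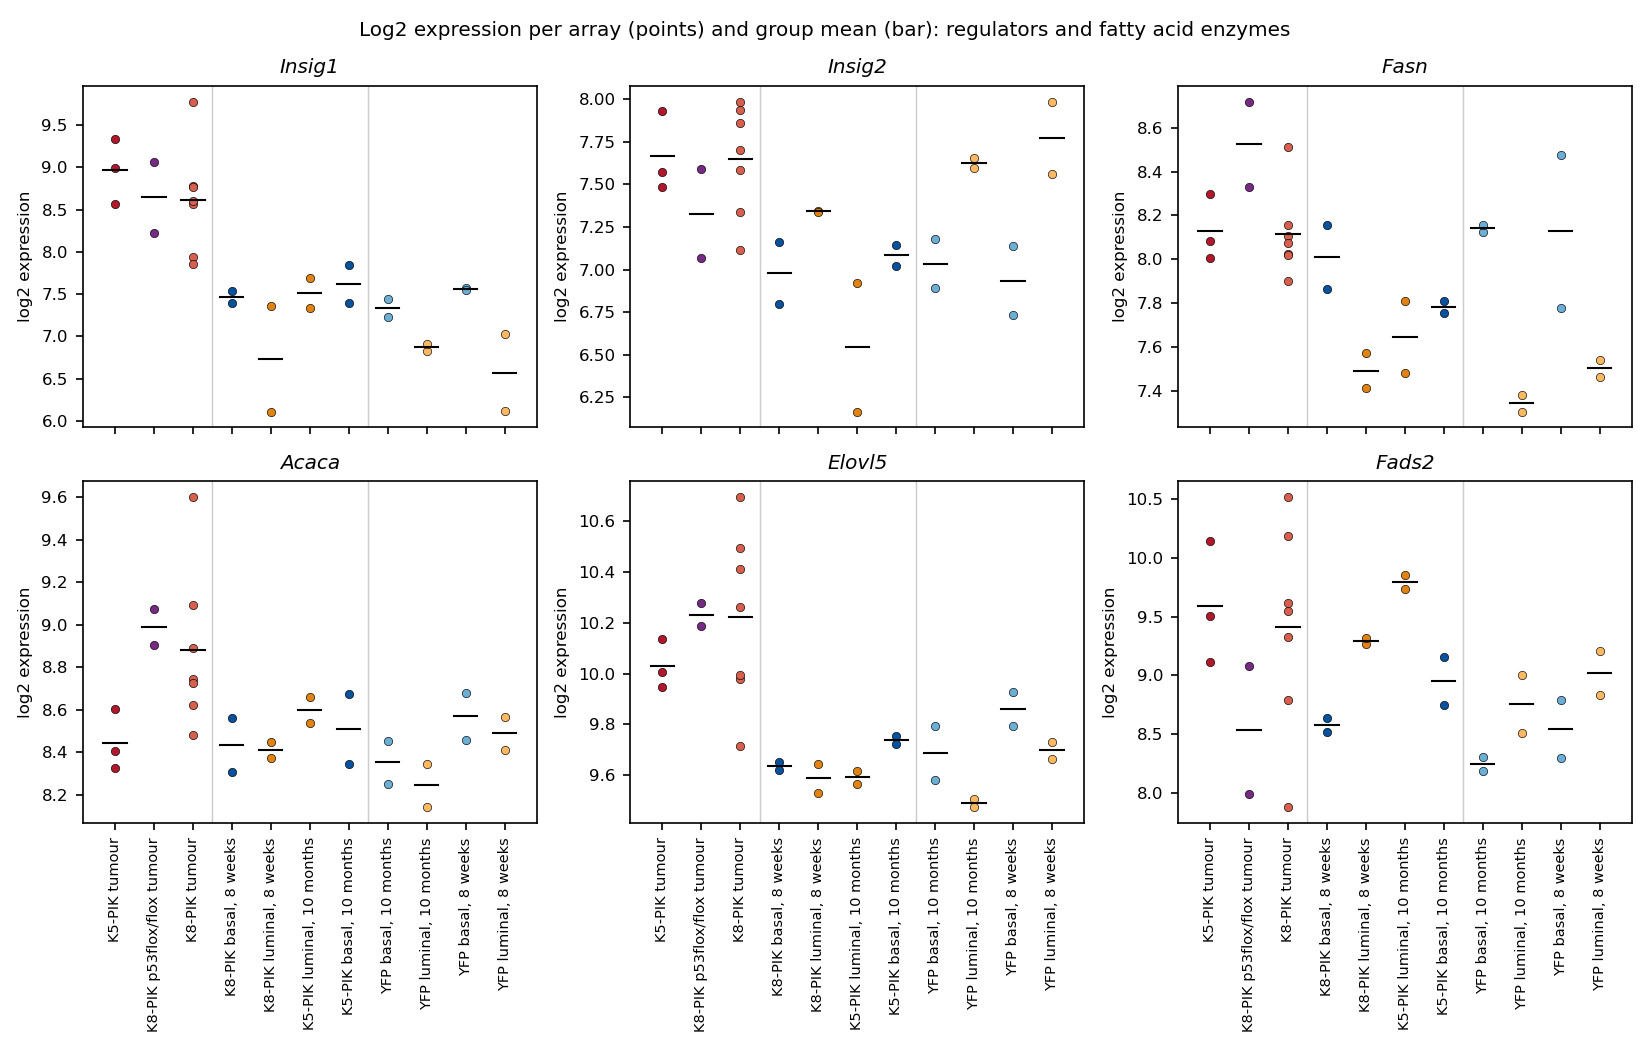
Log2 expression (vertical axis) of the regulators Insig1 and Insig2 and of Fasn, Acaca, Elovl5 and Fads2 on every array (points) with the group mean (bar), for tumours, sorted oncogene cells and YFP cells from left to right. Insig1 and Fasn of all K8-PIK tumours lie above all YFP luminal arrays, and Fads2 spreads from 7.88 to 10.52 among the 7 K8-PIK tumours.

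Tumours of luminal-targeted mice had more Insig1, Fasn, Dhcr7, Acaca, Elovl5 and Acsl4 than normal luminal cells. Of the 6 enzymes of fatty acid synthesis 2, Fasn and Acaca, were called higher in K8-PIK tumours and the same 2 in p53flox/flox tumours, and Acly, Acss2, Acacb and Me1 were not called. In K8-PIK tumours 6 of 35 members were higher and none lower than in YFP luminal cells of both times, where 4.47% of all 13663 genes were called higher and 6.13% lower (10.6% in all). The median member difference was 0.29, beside -0.000927 over all genes. Insig1 ran from 7.85 to 9.78 with a median of 8.60 in K8-PIK tumours, against 6.83 and 6.91 in YFP luminal cells at 10 months and 7.03 and 6.11 at 8 weeks (1.89 ± 0.30, adjusted p = 0.000765). Fasn ran from 7.90 to 8.51 with a median of 8.08 in K8-PIK tumours, against 7.31 and 7.38 at 10 months and 7.47 and 7.54 at 8 weeks in YFP luminal cells (0.69 ± 0.13, adjusted p = 0.0031). Dhcr7 ran from 7.78 to 9.25 with a median of 8.11 in the tumours, against 7.38 and 7.09 and 7.64 and 7.69 in the luminal cells of those times (0.94 ± 0.26, adjusted p = 0.0252). Those 3 members did not overlap with the normal arrays, the only ones of 35, as did not 6.90% of all genes. Acaca, the carboxylase that makes malonyl-CoA, ran from 8.48 to 9.60 with a median of 8.74 in the tumours, against 8.35 and 8.14 and 8.41 and 8.57 (0.51 ± 0.16, adjusted p = 0.0414), Elovl5 differed by 0.63 ± 0.14, adjusted p = 0.00741 and Acsl4 by 1.23 ± 0.39, adjusted p = 0.0473. For these 3 the tumour and luminal arrays overlapped. Scd1 (0.29 ± 0.26, adjusted p = 0.535), Sqle (0.07 ± 0.25, adjusted p = 0.909) and Srebf2 (-0.26 ± 0.16, adjusted p = 0.336) were not called.

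Insig1 was called in all 19 alternative settings of that comparison and Fasn in 18. Leaving out any of the 4 YFP luminal arrays left 3 members (3.35% to 6.09% of all genes). Without K8-PIK tumour replicate 3 there were 7, where 10.7% of all genes were called: Insig1, Dhcr7, Fasn and Elovl5 were still called, Acaca and Acsl4 were not, and Fads1, Acsl3 and Me1 (0.76 ± 0.15, adjusted p = 0.00433) were added. Against the 8-week luminal cells alone 1 member was called and against the 10-month cells alone 3, settings chosen after seeing the data. The share of all genes called in these settings is not given, so the counts are no result about the members alone. Among fibroblast genes 2 of 6 were higher in the tumours (list means 5.08 to 8.32, against 5.00 to 6.08), proliferation list means were 5.81 to 7.64 in tumours, against 5.35 to 6.67, with 0 of 6 genes called. Basal markers were higher in the tumours for 6 of 10 genes (list means 6.51 to 9.04, against 5.72 to 6.75) and luminal markers lower for 2 of 12 (7.74 to 10.00, against 9.93 to 10.05). The part of any of these in the member differences was not tested.

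The p53flox/flox tumours had 9 of 35 members higher and 1 lower than YFP luminal cells, where 24.0% of all genes were called (12.1% higher and 11.8% lower). Mevalonate kinase, Mvk, had 7.19 and 7.10 in these tumours, against 5.93 and 6.08 and 6.46 and 6.33 in YFP luminal cells at 10 months and 8 weeks (0.95 ± 0.17, adjusted p = 0.000871). Fasn had 8.72 and 8.33 in the tumours (1.10 ± 0.18, adjusted p = 0.00054), and Cyp51 had 8.42 and 8.86, against 7.42 and 7.78 and 7.59 and 6.99 in luminal cells (1.20 ± 0.29, adjusted p = 0.00568). Both tumours exceeded all 4 luminal arrays for each of them. In all, 20 of 35 members and 51.3% of all genes did not overlap. Insig1 had 8.22 and 9.06 (1.92 ± 0.42, adjusted p = 0.003), Dhcr7 8.59 and 9.01 (1.35 ± 0.36, adjusted p = 0.011), Acsl4 9.85 and 8.41 (2.17 ± 0.54, adjusted p = 0.00683) and Fdps 7.66 and 7.49 (0.96 ± 0.34, adjusted p = 0.0483) in the p53flox/flox tumours. Elovl5 (0.64 ± 0.19, adjusted p = 0.0203) and Acaca (0.62 ± 0.22, adjusted p = 0.0418) were higher, and Scap, with 6.59 and 6.40 in tumours, against 7.26 and 7.20 and 7.44 and 7.31 in luminal cells, was lower (-0.81 ± 0.21, adjusted p = 0.00832). Fasn and Mvk were called in all 14 settings, another probe set of Cyp51 had the opposite sign, and 5 members were called without p53flox/flox tumour replicate 2 (14.6% of all genes). Fibroblast genes (4 of 6, list means 7.72 to 8.29, against 5.00 to 6.08) and proliferation genes (4 of 6, 7.35 to 7.36, against 5.35 to 6.67) were higher in the same tumours. Luminal markers were lower for 7 of 12 genes (7.76 to 8.58, against 9.93 to 10.05) and basal markers higher for 4 of 10 (7.18 to 7.75, against 5.72 to 6.75). The part of these lists was not tested.

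**Figure D4:**
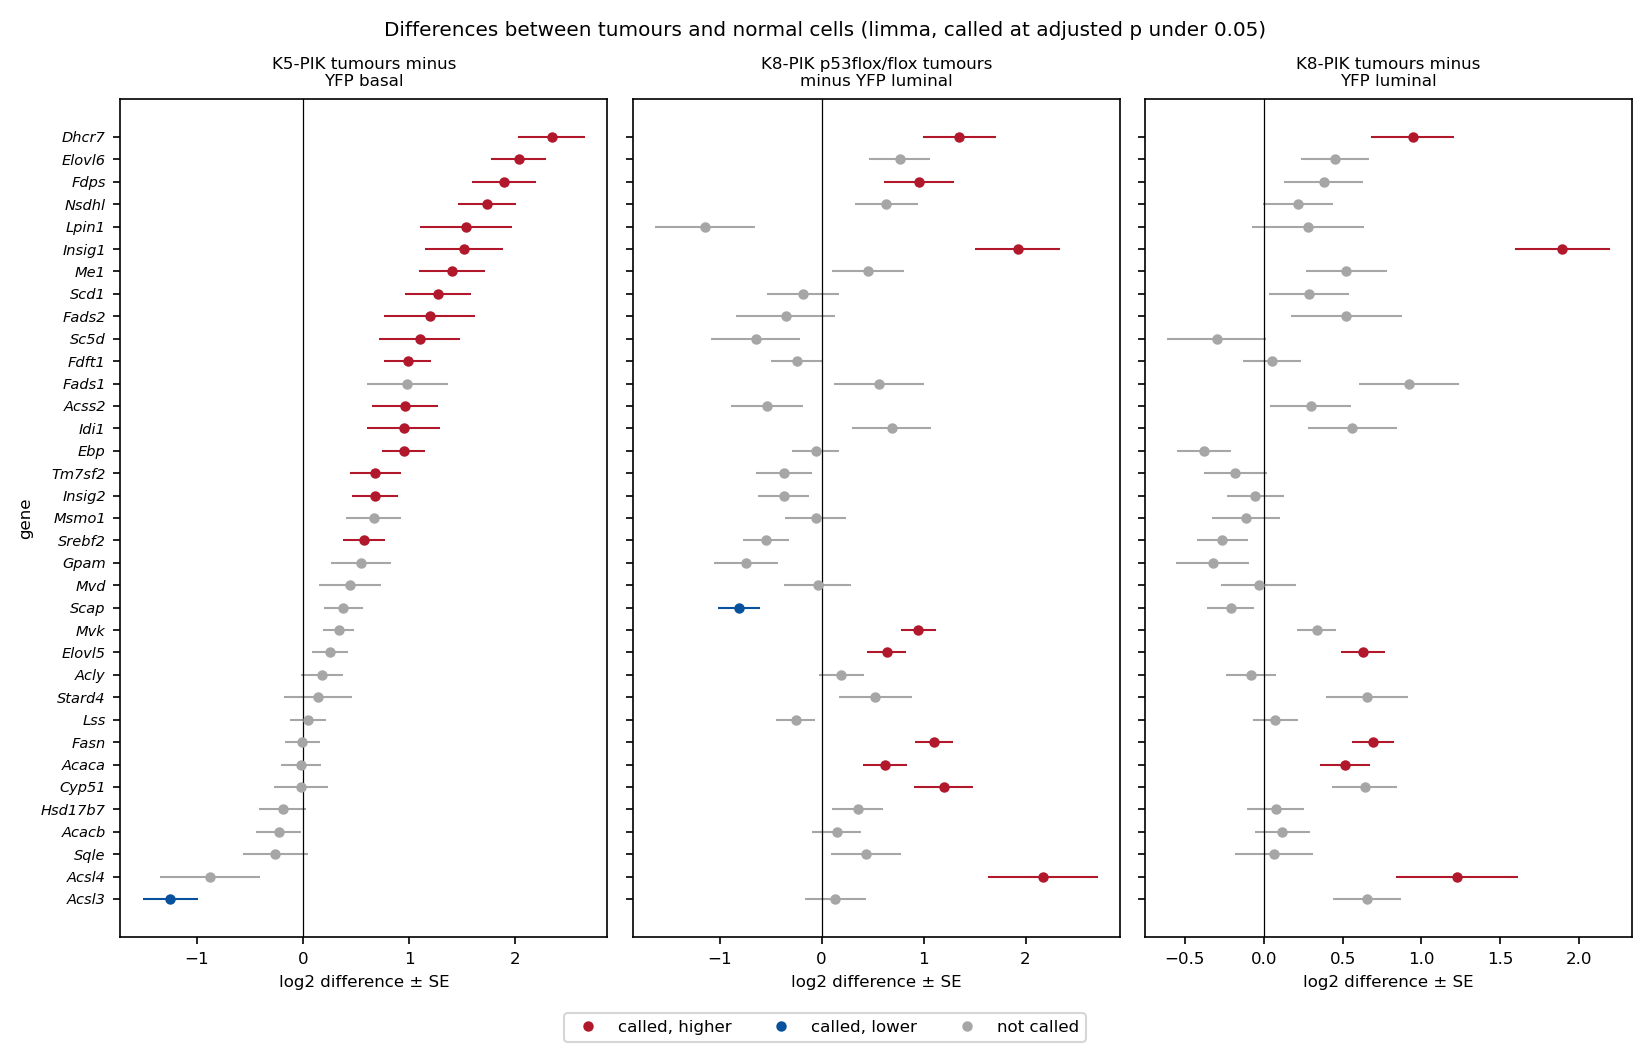
Log2 difference ± SE (horizontal axis) of 35 members for K5-PIK tumours minus YFP basal cells, p53flox/flox tumours minus YFP luminal cells and K8-PIK tumours minus YFP luminal cells, with called members in red (higher) or blue (lower). The first panel has 17 red members and 1 blue, Acsl3, and Insig1 and Dhcr7 are red in all 3 panels.

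K5-PIK tumours, set against YFP basal cells, had more of 6 of 11 enzymes between squalene and cholesterol and of 3 of 5 desaturating and elongating enzymes, and less Acsl3. Of 35 members 17 were higher and 1 lower, where 15.5% of all genes were called higher and 14.5% lower (30.0% in all). The median member difference was 0.67, beside 0.04 over all genes. Dhcr7 had 8.18, 8.35 and 7.79 in K5-PIK tumours, against 5.30 and 5.72 in YFP basal cells at 10 months and 5.39 and 6.64 at 8 weeks (2.34 ± 0.32, adjusted p = 4.29e-05). Fdps had 6.74, 6.93 and 6.42 in the tumours, against 4.36 and 4.66 and 4.84 and 5.33 in basal cells of those times (1.90 ± 0.30, adjusted p = 0.000157), and Nsdhl 7.49, 7.35 and 6.85 against 5.02 and 5.48 and 5.43 and 6.06 (1.73 ± 0.27, adjusted p = 0.000141). Each tumour exceeded every basal array for these 3. In all, 18 of 35 members and 35.2% of all genes did not overlap. Smaller rises in the sterol arm were those of Sc5d (1.10 ± 0.38, adjusted p = 0.0351), Fdft1 (0.99 ± 0.22, adjusted p = 0.00246), Idi1 (0.95 ± 0.34, adjusted p = 0.0416) and Ebp (0.95 ± 0.21, adjusted p = 0.00179). Of the regulators Insig1 had 9.33, 9.00 and 8.56 in the tumours, against 7.44 and 7.22 and 7.57 and 7.55 in basal cells (1.52 ± 0.37, adjusted p = 0.00401).

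Elovl6 had 6.70, 7.46 and 7.12 in K5-PIK tumours, against 4.54 and 5.14 and 4.62 and 5.92 in YFP basal cells at 10 months and 8 weeks (2.03 ± 0.26, adjusted p = 2.52e-05). Scd1 had 10.03, 9.52 and 9.49 in the tumours, against 8.03 and 8.17 and 8.32 and 9.11 (1.27 ± 0.31, adjusted p = 0.00422), and Me1 9.41, 9.39 and 9.29 against 8.00 and 8.09 and 7.84 and 7.88 (1.41 ± 0.31, adjusted p = 0.00206). No tumour array of these 3 fell within the basal range. Fads2 (1.19 ± 0.43, adjusted p = 0.0411) and Acss2, which makes acetyl-CoA from acetate (0.96 ± 0.31, adjusted p = 0.0246), were higher as well, and Lpin1 was higher with overlapping arrays (1.54 ± 0.43, adjusted p = 0.0105). The remaining higher members were Insig2, Tm7sf2 and Srebf2, at 0.58 to 0.68. Acsl3 had 6.97, 7.20 and 6.46 in the tumours, against 8.21 and 8.41 and 7.67 and 8.21 in basal cells (-1.25 ± 0.26, adjusted p = 0.00139). Fasn (-0.01 ± 0.16, adjusted p = 0.984) and Acaca (-0.02 ± 0.19, adjusted p = 0.958) were not called. Acsl3, Dhcr7, Elovl6, Fdft1, Fdps, Insig1, Me1 and Nsdhl were called in all 15 settings. Against the 8-week basal cells alone, a setting chosen after seeing the data, 8 members were called. The share of all genes called in that setting is not given. Luminal markers were higher in these tumours for 9 of 12 genes, basal markers lower for 6 of 10 and endothelial markers lower for 5 of 8 (list means 5.44 to 5.96, against 6.40 to 7.60 in basal cells), and their part in the member differences was not tested.

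Against K5-PIK luminal cells at 10 months, the cells of the same genotype sorted through the luminal gate, limma called no member in K5-PIK tumours, where 0.637% of all genes were called, while 9 members and 14.3% of all genes had an unadjusted p under 0.05. Without K5-PIK luminal replicate 2 the count was 1 (1.81% of all genes). The largest of the 9 were Insig1, with 9.33, 9.00 and 8.56 in tumours, against 7.69 and 7.33 in K5-PIK luminal cells (1.45 ± 0.44, adjusted p = 0.131), and Insig2, with 7.57, 7.49 and 7.93 against 6.17 and 6.92 (1.12 ± 0.26, adjusted p = 0.0517). All tumour arrays lay above the luminal arrays for both genes. Of the whole list 18 of 35 members and 28.9% of all genes did not overlap. Dhcr7 (0.41 ± 0.38, adjusted p = 0.683), Fdps (0.68 ± 0.36, adjusted p = 0.407) and Scd1 (-0.63 ± 0.37, adjusted p = 0.466) had smaller differences there than beside YFP basal cells. The tumour arrays are shared between the comparisons, and the difference between them was not tested.

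K8-PIK tumours had 3 members higher than K8-PIK luminal cells at 8 weeks, where 2.50% of all genes were called (0.834% higher). Insig1 ran from 7.85 to 9.78 with a median of 8.60 in tumours, against 7.36 and 6.11 in K8-PIK luminal cells (1.88 ± 0.39, adjusted p = 0.0196). Elovl6 ran from 6.72 to 7.63 with a median of 7.25 in tumours, against 6.23 and 6.03 (1.13 ± 0.27, adjusted p = 0.0361), and Mvk from 6.23 to 6.91 with a median of 6.51, against 5.85 and 5.69 (0.76 ± 0.16, adjusted p = 0.0196). Every tumour lay above both luminal arrays for the 3 genes. Of the whole list 10 of 35 members and 15.1% of all genes did not overlap. The count was 6 without tumour replicate 3, with Lpin1, Acsl3 and Fasn added (2.88% of all genes called), 1 without K8-PIK luminal replicate 1 (0.19%) and 0 without K8-PIK luminal replicate 2, where limma called no gene at all. With only the groups compared in the fit no member was called, a count given without the share of all genes in that setting. Fibroblast list means ran from 5.08 to 8.32 in these tumours, against 5.06 to 5.10 in K8-PIK luminal cells, and their part was not tested.

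No member passed the test between tumour types. Between K5-PIK and K8-PIK tumours limma called no member and 0% of all genes, with 1 member and 9.25% of all genes at an unadjusted p under 0.05. The member at an unadjusted p under 0.05 was Ebp, with 7.37, 7.96 and 7.37 in K5-PIK tumours and 7.52 to 8.38 with a median of 8.03 in K8-PIK tumours (-0.43 ± 0.20, adjusted p = 0.534). Between p53flox/flox and K8-PIK tumours limma called no member either, where 0.325% of all genes were called, with 4 members and 19.7% of all genes at an unadjusted p under 0.05. Without K8-PIK tumour replicate 3 there were 3, Mvk higher (0.68 ± 0.18, adjusted p = 0.0461) and Scap (-0.69 ± 0.16, adjusted p = 0.0311) and Lpin1 (-1.62 ± 0.43, adjusted p = 0.0442) lower in p53flox/flox tumours, where 7.81% of all genes were called. With all arrays Lpin1 had 5.53 and 5.33 in p53flox/flox tumours and 5.71 to 7.69 with a median of 7.03 in K8-PIK tumours (-1.43 ± 0.50, adjusted p = 0.164), without overlap, as for 2 of 35 members and 15.5% of all genes.

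Among the 7 K8-PIK tumours single arrays led for groups of members. Replicate 7 had the highest Insig1 (9.78), Fads1 (10.28), Fads2 (10.52) and Me1 (9.63). Replicate 3 had the lowest Fads1 (8.13), Fads2 (7.88), Me1 (7.71), Acsl3 (6.61) and Lpin1 (5.71) and the highest Acsl4 (9.40). Replicate 2 had the highest Fdps (7.69), Mvd (7.03), Idi1 (8.26), Sqle (8.11), Cyp51 (8.73), Nsdhl (7.98), Tm7sf2 (6.88) and Hsd17b7 (6.12). So 8 of the 14 members between mevalonate and cholesterol that were above background peaked there, 3 on replicate 5, 2 on replicate 1 and 1 on replicate 3. Replicate 1 was highest for 5 of 6 members of fatty acid synthesis, among them Acly (10.39), Acaca (9.60) and Fasn (8.51), and for Scd1 (10.81). Replicate 6 was lowest for 9 of those 14 sterol members, among them Fdps (6.12), Idi1 (6.18), Cyp51 (7.38), Nsdhl (6.79) and Msmo1 (4.42). These are descriptions of single tumours picked after their values were seen, and no test was made.

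Genes of neighbouring lipid pathways were read from lists kept apart from the members. In YFP basal cells against YFP luminal cells, 2 of 18 further lipid synthesis genes were higher and 5 lower at 8 weeks, and 3 and 8 at 10 months. Of all genes 10.4% were called higher and 19.9% lower at 8 weeks, and 17.6% and 25.8% at 10 months. Those shares stand beside every list of this paragraph, and no list was tested against them. The very long chain elongase Elovl4 (3.82 ± 0.32, adjusted p = 1.02e-05 at 8 weeks and 4.46 ± 0.32, adjusted p = 1.3e-06 at 10 months) and the dehydratase Hacd1 (1.99 ± 0.38, adjusted p = 0.00217 and 3.25 ± 0.38, adjusted p = 3.99e-05) were higher, and Elovl7 was lower (-2.03 ± 0.35, adjusted p = 0.00134 and -2.00 ± 0.35, adjusted p = 0.000796). Basal cells thus had less Elovl6 and Elovl7 and more Elovl4. Of 10 fatty acid oxidation genes 3 were lower at 8 weeks and 6 at 10 months, none higher, among them Cpt2 (-1.86 ± 0.20, adjusted p = 5.89e-05 and -1.38 ± 0.20, adjusted p = 0.000233) of the mitochondrial carnitine system and Decr1 (-1.49 ± 0.38, adjusted p = 0.0118 and -1.98 ± 0.38, adjusted p = 0.00145). Of 7 sterol efflux and LXR genes 2 were higher and 2 lower at 8 weeks and 1 and 3 at 10 months, with Apoe higher (2.79 ± 0.49, adjusted p = 0.00146 and 2.69 ± 0.49, adjusted p = 0.00104) and the sterol exporter Abcg1 lower (-2.07 ± 0.38, adjusted p = 0.00196 and -1.77 ± 0.38, adjusted p = 0.00281). Of 8 further sterol genes 1 was higher and 2 lower at 8 weeks and 1 and 4 at 10 months, with Rdh11 higher (1.23 ± 0.22, adjusted p = 0.00171 and 1.67 ± 0.22, adjusted p = 0.000112). Among 10 lipid uptake and storage genes 1 was higher and 1 lower at 8 weeks and 1 and 3 at 10 months, with Plin2, a lipid droplet coat protein, lower at 10 months (-1.64 ± 0.21, adjusted p = 7.97e-05).

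With the oncogene, Plin2 was the single neighbouring gene called between K8-PIK and YFP luminal cells (1.33 ± 0.21, adjusted p = 0.0185), where no member and 0.350% of all genes were called. In K5-PIK basal cells the droplet protein Plin3 was higher (1.27 ± 0.26, adjusted p = 0.00912) and the fatty acid receptor Cd36 lower (-2.01 ± 0.49, adjusted p = 0.0173) than in YFP basal cells. Tumours of luminal-targeted mice had less Elovl7 (-2.01 ± 0.39, adjusted p = 0.00157 in p53flox/flox and -1.68 ± 0.28, adjusted p = 0.00119 in K8-PIK tumours) and less of the triglyceride enzyme Dgat2 (-2.22 ± 0.50, adjusted p = 0.00356 and -1.64 ± 0.36, adjusted p = 0.00706) than YFP luminal cells, and K8-PIK tumours had less Lpin2 (-1.10 ± 0.18, adjusted p = 0.0012). In K5-PIK tumours against YFP basal cells Elovl4 (-3.05 ± 0.56, adjusted p = 0.000514), Cd36 (-2.43 ± 0.35, adjusted p = 6.95e-05) and Rdh11 (-1.52 ± 0.23, adjusted p = 0.000104) were lower, and Elovl7 (1.61 ± 0.34, adjusted p = 0.00159), Plin3 (1.51 ± 0.24, adjusted p = 0.000141) and Decr1 (1.31 ± 0.28, adjusted p = 0.00179) higher. Endothelial list means were lower in both comparisons of Cd36. They were 4.44 to 5.67 in K5-PIK basal cells, against 6.40 to 7.37 in YFP basal cells at 10 months. In K5-PIK tumours they were 5.44 to 5.96, against 6.40 to 7.60 in YFP basal cells of both times. The part of endothelial RNA in the differences of Cd36 and the other neighbouring genes was not tested. Of the 18 further lipid synthesis genes, K8-PIK tumours had 2 higher and 3 lower, p53flox/flox tumours 3 and 3, and K5-PIK tumours 5 and 1. Of all genes 4.47% were called higher and 6.13% lower in K8-PIK tumours. The shares were 12.1% and 11.8% in p53flox/flox tumours, and 15.5% and 14.5% in K5-PIK tumours.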

How the data were processed

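RNA of flow-sorted mouse mammary cells and tumours was hybridised to Affymetrix arrays, per the labels. The values deposited by the authors are on the log2 scale, cover 45141 probe sets on 28 arrays and run from 1.67 to 12.7. They were used without further scaling. R 2.14.0 was used per the submitters' processing notes, and the background correction and normalization are not given in the sources used here. GEO's platform annotation gave 28898 probe sets 1 symbol (28689 matched the RefSeq gene table by gene identifier), 551 several and 15692 none, and those with several or none were not used. Where a gene had several probe sets, as 24 members did, the one with the highest mean stood for it, which gave 17097 genes. A gene was tested if it exceeded its array's 40th percentile (3.89 to 3.99) on at least 2 arrays. Group means were fitted by limma 3.58.1 (R 4.3.3) to 16 sorted arrays (13150 genes), 12 tumour arrays (13244 genes) or all 28 arrays for tumours against sorted cells (13663 genes), after the scripts had been tested on simulated data. The number of arrays limits the precision. Samples were grouped by the labels alone, which give no batch.

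The members, gene lists, comparisons and settings were chosen with earlier results of these data known. Any member could be named; in each comparison the called ones were (at least the 12 with the largest change), Insig1, Srebf2, Hmgcs1, Sqle, Fasn, Acaca and Scd1 could be named in any comparison, and of each other list up to 3 called genes with the largest change were. Single tumours were described after their values were seen. Replicate numbers are shared between groups, and nothing in the labels pairs them. Alternatives were another set of arrays in the fit, no filter, a trended and robust prior, the mean of probe sets, added quantile normalization, a replicate block and leaving out each array.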

Additional observations from a re-analysis of the deposited data

Results flagged for a closer look

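Fasn in K8-PIK tumour replicate 1 was 8.5129, the highest of 7 tumours, and the next was 8.16. Its gap to the next was 0.586 of the group's range, above the Dixon limit of 0.568. Chance passes this limit in about 1 of 20 groups, and 36 members were looked at.

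At 10 months the basal minus luminal gap in K5-PIK cells differed from that in YFP cells by 1.4038 for Ebp (1.40 ± 0.35, adjusted p = 0.0351) and by -1.0495 for Stard4 (-1.05 ± 0.21, adjusted p = 0.0182) in limma's interaction test. Stard4 had 3.86 and 3.92 in K5-PIK basal cells and 4.66 and 4.42 in K5-PIK luminal cells, and 4.21 and 4.21 in YFP basal cells and 3.76 and 3.87 in YFP luminal cells. Ebp had 6.17 and 6.52 in YFP basal cells and 8.16 and 8.25 in YFP luminal cells. With all 28 arrays in the fit neither interaction was called. The gap of Ebp was narrower in K5-PIK cells, and that of Stard4 had the opposite sign. Genotype and Cre driver cannot be told apart in the luminal gate.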

How the results depend on the processing

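No called member changed direction in any setting. With all 28 arrays in the fit, called members numbered 0 for YFP basal cells between times (1 in the reported fit). They numbered 1 for K5-PIK against YFP basal cells (3), 6 for the K8-PIK gates (11) and 5 for the K5-PIK gates (11). They numbered 0 for K5-PIK against YFP luminal cells (4), 0 for the 10-month interaction (2) and 1 for p53flox/flox against K8-PIK tumours (0). With only the compared groups in the fit they numbered 2 for K8-PIK tumours against YFP luminal cells (6) and 0 against K8-PIK luminal cells (3). The mean of probe sets gave 7 for K5-PIK against YFP basal cells (3), 1 for K8-PIK against YFP basal cells (0) and 5 for K8-PIK tumours against K8-PIK luminal cells (3). Added quantile normalization gave 2 for YFP basal cells between times (1 higher and 1 lower). For K5-PIK against YFP basal cells it gave 7 (6 higher and 1 lower, against 2 and 1). For K5-PIK tumours against K5-PIK luminal cells it gave 1 (0). It also gave 5 higher and 11 lower for the YFP gates at 8 weeks (3 and 13) and 2 and 1 for K5-PIK against YFP luminal cells (2 and 2). The replicate block gave 5 for K5-PIK against YFP basal cells, 1 for K8-PIK against YFP basal cells, 4 for the 10-month interaction, 14 for K8-PIK tumours against YFP luminal cells, 13 against K8-PIK luminal cells and 1 for K5-PIK tumours against K5-PIK luminal cells. Nothing in the labels pairs the numbers. Deviations of same-numbered K5-PIK and K8-PIK tumours correlated at 0.09, -0.09 and 0.21, and not every tumour correlated best with its own number. Between groups of 2 arrays they ran from -0.08 to 0.38, with 0.36 for K5-PIK luminal with K5-PIK basal cells and 0.38 for YFP basal cells at 10 months with 8 weeks. Against normal cells of 1 time alone, added after seeing the data, K8-PIK tumours had 1 (8 weeks) and 3 (10 months) called members (6), p53flox/flox tumours 6 at 8 weeks (10) and K5-PIK tumours 8 at 8 weeks (18). In this paragraph the share of all genes called in the same setting is not given. It is also not given above for added quantile normalization, for normal cells of 1 time alone or for only the compared groups. A change in a count of members may therefore follow a change over all genes. The cause of these shifts was not tested.

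Leaving out 1 array at a time gave 5 to 11 called members for the YFP gates at 8 weeks and 12 to 15 at 10 months. It gave 0 to 2 for YFP basal cells between times and 0 to 2 for K5-PIK against YFP basal cells. The K8-PIK gates had 2 to 7, K8-PIK against YFP basal cells 0 to 1 and the K5-PIK gates 6 to 9. K5-PIK against YFP luminal cells had 0 to 4 and the 10-month interaction 0 to 6. For tumours, leaving out 1 array gave 0 to 3 for p53flox/flox against K8-PIK tumours. Against YFP luminal cells it gave 3 to 7 for K8-PIK and 5 to 9 for p53flox/flox tumours. It gave 12 to 16 for K5-PIK tumours against YFP basal cells. K8-PIK tumours against K8-PIK luminal cells had 0 to 6, and K5-PIK tumours against K5-PIK luminal cells 0 to 1. The number of all genes called changed between these settings as well, so the ranges are no result about the members alone. A group left with 1 array was assumed to vary like the others. Of 63 calls on members with further probe sets, those gave 95 values, 92 of the same sign. Groups of 2 arrays limit what could be called.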
